A study of Mus musculus with 16 samples.

Results

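Genes of the oligodendrocyte lineage, the cells that wrap axons of the central nervous system in myelin, were followed in mouse hippocampus. The set held 30 named genes, and 27 of them were matched to at least 1 array probe through the RefSeq transcript that the array design gives for the probe. Those 27 genes were among 17174 genes matched in all, and they had 40 of the 41174 non-control probes. The transcription factors Sox10 and Myrf and the myelin cytoskeletal gene Ermn were not analysed here. The tissue came from male mice of 2 lines of senescence-accelerated mice (SAM) that the labels trace to AKR/J stock, the senescence-prone SAM/P-8 and the senescence-resistant SAM/R-1. Feeding began at an age of 8 weeks and lasted 8 weeks, with the rodent chow CE-2 alone or with 0.1% coral calcium hydride (CCH) added, and no other allele or agent is given. Each of the 4 groups, SAM/P-8 control, SAM/P-8 CCH, SAM/R-1 control and SAM/R-1 CCH, had 4 one-colour Agilent arrays. Whether the 4 arrays of a group came from separate animals is not stated, so every p-value reflects no more than the spread among these arrays. The arrays of a group shared 1 slide, and effects of slide and of group cannot be told apart.

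Oligodendrocytes form from dividing precursor cells that carry the platelet-derived growth factor receptor Pdgfra. Precursors pass through a short newly forming stage marked by Gpr17, Enpp6 and Bcas1, under the lineage factors Olig1, Olig2, Sox10, Myrf and Nkx6-2, and then produce myelin proteins and the enzymes of myelin lipids. The hippocampus is mostly grey matter, with myelin concentrated in bordering fibre tracts such as the alveus and fimbria. In bulk tissue, fewer cells of a type and less RNA per cell cannot be told apart.

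The sequence just upstream of the start site is shown for 4 members, because these members carry the patterns described below. Sapcd2 differed between the strains on both diets and Olig2 on the CCH diet. Cnp and Mog stand for the myelin genes that were highest on the same array, SAM/P-8 CCH replicate 4. Each line gives the 250 bases before the start, 5′ to 3′ on the strand of the gene, from RefSeq on GRCm38.p6. Capitals mark matches, on either strand, to the E-box CANNTG that basic helix-loop-helix factors such as the Olig proteins read, to the SOX-type motif ACAAAG, and to the MYRF-type motif CTGGNAC. Matches to different motifs may overlap.
Sapcd2, chr2:25371785-25372034, plus strand: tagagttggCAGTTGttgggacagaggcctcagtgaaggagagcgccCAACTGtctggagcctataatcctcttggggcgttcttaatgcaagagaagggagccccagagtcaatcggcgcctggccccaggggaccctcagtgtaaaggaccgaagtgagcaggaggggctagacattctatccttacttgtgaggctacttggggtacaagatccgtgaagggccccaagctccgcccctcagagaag
Olig2, chr16:91225300-91225549, plus strand: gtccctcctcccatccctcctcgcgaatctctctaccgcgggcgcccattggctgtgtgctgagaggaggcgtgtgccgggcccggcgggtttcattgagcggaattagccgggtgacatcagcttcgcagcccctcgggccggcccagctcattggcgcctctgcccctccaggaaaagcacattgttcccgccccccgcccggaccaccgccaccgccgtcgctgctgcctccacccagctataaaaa
Cnp, chr11:100574689-100574938, plus strand: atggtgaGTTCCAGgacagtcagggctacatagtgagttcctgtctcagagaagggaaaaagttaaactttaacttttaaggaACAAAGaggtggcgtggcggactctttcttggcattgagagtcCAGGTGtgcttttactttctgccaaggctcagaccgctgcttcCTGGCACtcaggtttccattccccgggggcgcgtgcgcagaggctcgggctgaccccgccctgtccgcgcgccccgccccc
Mog, chr17:37023399-37023648, minus strand: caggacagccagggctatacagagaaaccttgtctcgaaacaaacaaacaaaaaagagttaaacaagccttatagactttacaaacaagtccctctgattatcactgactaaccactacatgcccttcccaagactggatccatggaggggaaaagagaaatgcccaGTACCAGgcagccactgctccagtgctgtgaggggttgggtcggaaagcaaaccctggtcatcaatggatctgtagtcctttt
Sapcd2 had 2 E-box matches, Olig2 had 0 matches to any of these motifs, Cnp had 1 E-box, 1 SOX-type and 2 MYRF-type matches, and Mog had 1 MYRF-type match. Of 30 members, 21 had an entry in the RefSeq promoter table. An E-box stood upstream of 14 of these 21 members (66.7%), against 66.0% of all 27025 promoters. The SOX-type motif stood upstream of 5 of 21 members (23.8%) against 16.5% of all, and the MYRF-type motif upstream of 3 of 21 (14.3%) against 15.95%. A match describes the letters and is not evidence of binding.

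The scanner software marked between 28920 and 33333 of 43379 non-control spots per array as well above background, and replicates of a group correlated at 0.9874 to 0.9972. Levels are given as log2 of the processed signal minus the 75th percentile of that array, a scale on which 2 probes cannot be set against each other. Differences are log2 values ± SE, fitted with limma on all 16 arrays with n = 4 and 4, and a gene is called where its adjusted p over all 29009 probes kept is below 0.05. Where a gene had several probes, the brightest one represents it. All 27 members were represented by a probe well above background on 16 of 16 arrays, so none of them passed the filter on dim probes only through the group where it was high. Markers of neurons (12 of 12, among them Slc17a7 and Camk2a), astrocytes (12 of 12) and microglia (12 of 12) were well above background on 16 arrays, and so were 10 of 12 striatal markers, so detection alone does not tell hippocampus from other brain regions.

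One array stood apart in the myelin genes, SAM/P-8 CCH replicate 4, and results are therefore given with and without it. For 22 of 27 members this array had the highest value of all 16, and for 12 of 12 myelinating members, meaning the 9 genes of the myelin membrane and the 3 of myelin lipid and metabolism. Against the mean of the other 3 arrays of its group, the myelinating members were higher by a median of 0.78, with a range of 0.58 to 0.95. The 5 precursor members were higher by a median of 0.13 only, with a range of 0.04 to 0.36, and the median over 13444 genes was -0.04. A per-array score, the mean deviation of the members from their own averages over 16 arrays, was 0.63 for the myelinating members on this array and -0.25 to 0.17 on the other 15. The same array had a score of 3.97 for 12 markers of the striatum, against -0.77 to 0.28 on the other 15, and it was the highest array for 12 of 12 of them. Drd1, the D1-type dopamine receptor of striatal neurons, stood at 1.51 there and between -3.50 and -2.33 elsewhere. The neuronal score was -0.13 on this array and -0.05 to 0.11 on the others, the astrocyte score was 0.20 against -0.15 to 0.14, and the microglial score was 0.14 against -0.18 to 0.13. The endothelial and pericyte score was 0.43 against -0.52 to 0.53, and the score of 5 measured Schwann cell markers was 0.50 against -0.25 to 0.31. The part of these other cells and regions in the myelin values of this array was not tested. At the other end, SAM/P-8 CCH replicate 3 had the lowest value of all 16 arrays for 11 of 27 members and 5 of 12 myelinating members. Within its group it was the lowest array for 22 of 27 members. Its score for 10 choroid plexus markers was -3.00, the lowest of 16. Other arrays were low in that score too. SAM/R-1 CCH replicates 2 and 3, SAM/P-8 control replicate 4 and SAM/R-1 control replicate 4 were at -2.75, -2.17, -1.95 and -1.27. Their myelinating scores were -0.04, -0.005, -0.20 and 0.07.

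**Figure D1:**
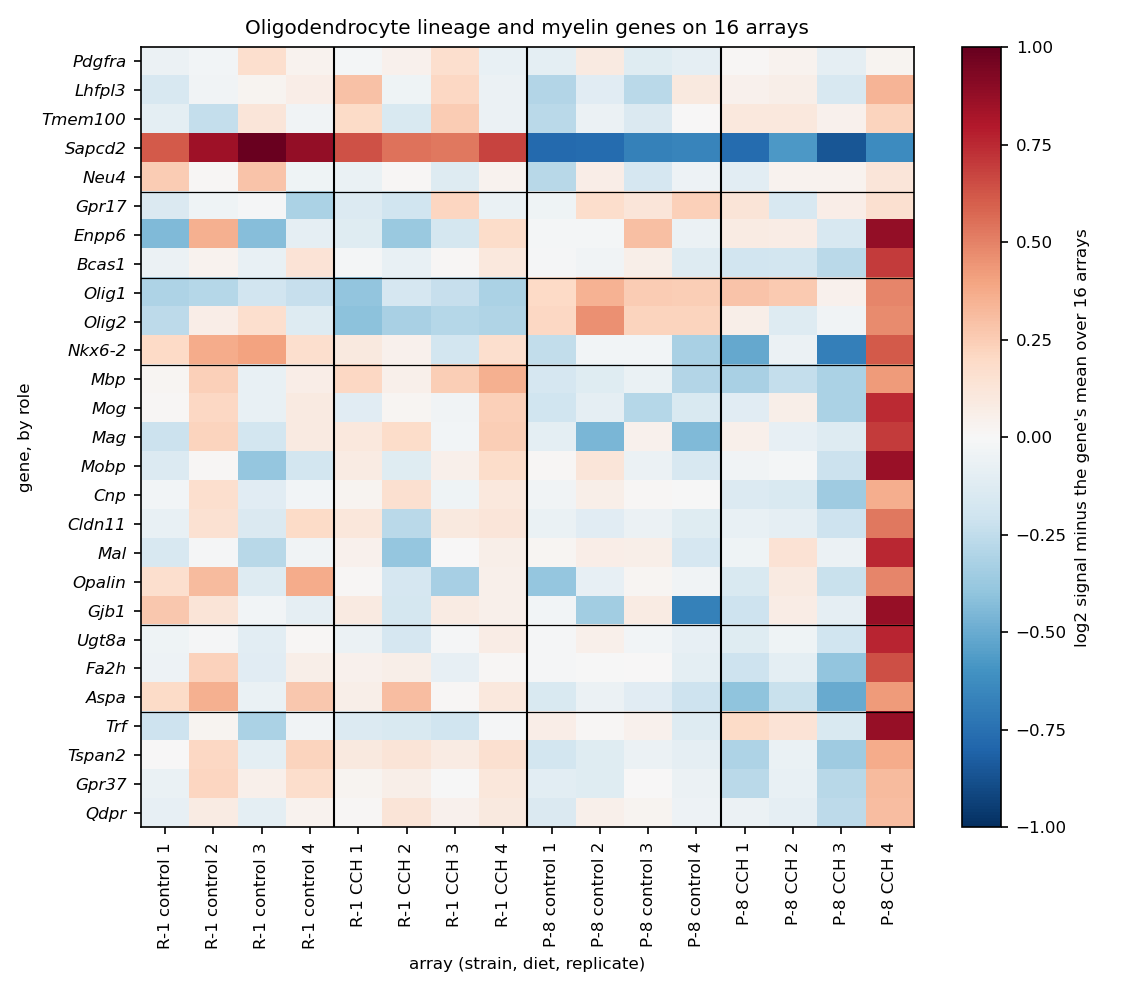
Deviation of each of 27 members (rows, grouped by role from precursor at the top to other oligodendrocyte-enriched genes at the bottom) from its own mean over 16 arrays (columns, by strain, diet and replicate), in log2 units from blue (lower) to red (higher). The last column, SAM/P-8 CCH replicate 4, is the highest array for 22 of 27 members, and the Sapcd2 row divides the strains.

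**Figure D2:**
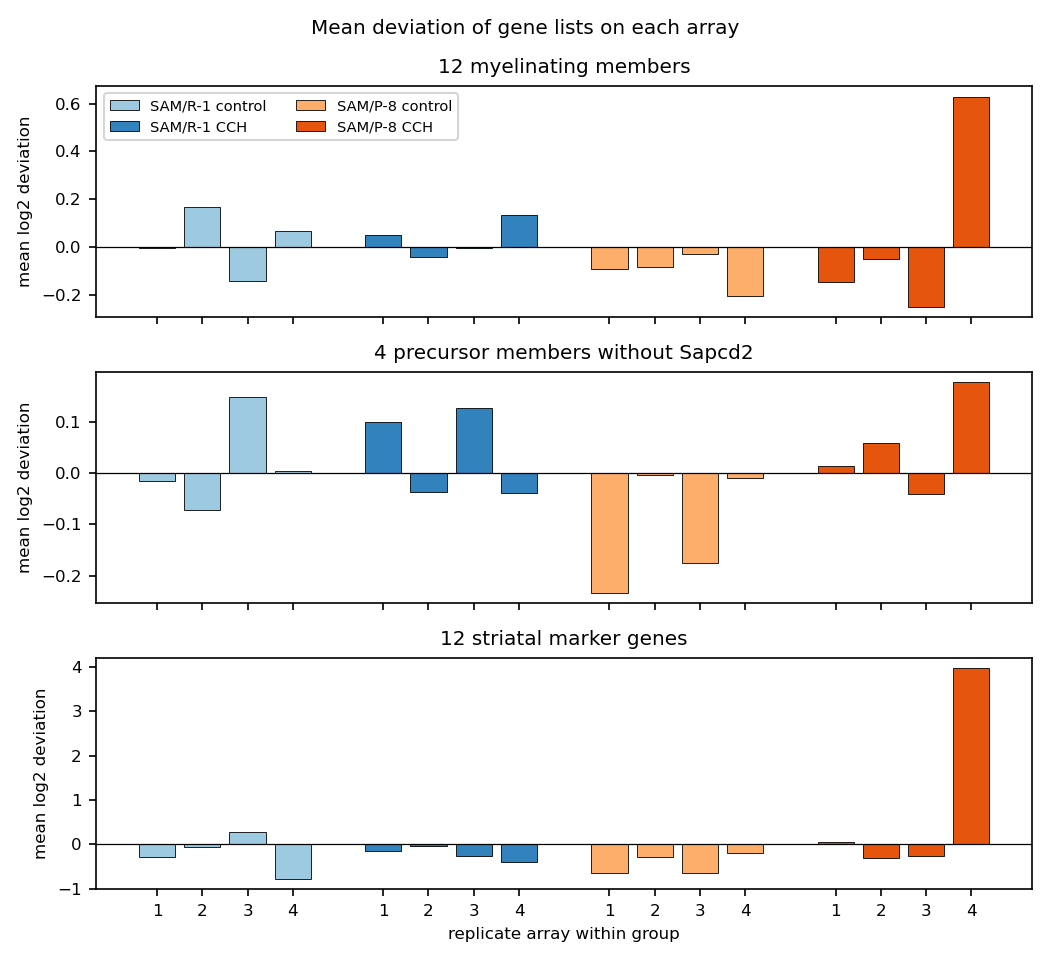
Score of each array (bars; mean log2 deviation from the 16-array mean of each gene) for the 12 myelinating members, the 4 precursor members other than Sapcd2, and 12 striatal markers, in 3 panels with separate vertical scales. SAM/P-8 CCH replicate 4 reaches 0.63, 0.18 and 3.97, and the other 15 arrays reach at most 0.17, 0.15 and 0.28.

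The precursor genes held the largest strain difference of the set, that of Sapcd2, while the other 4 were not called. Sapcd2 encodes a cell cortex protein that acts in orienting the mitotic spindle. On the control diet it stood at -2.03, -2.03, -1.93 and -1.91 in SAM/P-8 and at -0.64, -0.40, -0.26 and -0.37 in SAM/R-1. With CCH it stood at -2.03, -1.83, -2.11 and -1.88 in SAM/P-8 and at -0.62, -0.71, -0.72 and -0.58 in SAM/R-1. Every SAM/P-8 array was lower than every SAM/R-1 array on both diets, by a margin of over 1 log2 unit. Sapcd2 was 2.93-fold lower in SAM/P-8 on the control diet (-1.55 ± 0.08, limma adjusted p = 3.14e-09) and 2.47-fold lower on the CCH diet (-1.30 ± 0.08, adjusted p = 2.31e-08). The array has 1 Sapcd2 probe, and sequence variants between the strains at its target were not examined here. The genes on either side of it in RefSeq order were lower in SAM/P-8 too. Uap1l1, a relative of the enzyme that makes UDP-N-acetylglucosamine, differed by -1.59 on the control diet (adjusted p = 7.24e-08) and by -1.78 on the CCH diet (adjusted p = 1.99e-08). Entpd2, a cell surface enzyme that breaks down extracellular ATP, differed by -0.98 on both diets (adjusted p = 6.58e-07 and 6.55e-07). Beyond these genes, Dpp7 was higher by 0.43 on both diets (adjusted p = 0.00019 and 0.000246), and Npdc1, the next gene on the other side, was not called on either diet.

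Pdgfra, the growth factor receptor that defines precursors, differed little between the arrays. On the control diet it stood at -0.42, -0.23, -0.44 and -0.41 in SAM/P-8 and at -0.38, -0.35, -0.16 and -0.29 in SAM/R-1. With CCH it stood at -0.31, -0.28, -0.41 and -0.29 in SAM/P-8 and at -0.34, -0.28, -0.15 and -0.40 in SAM/R-1. The groups overlapped on both diets, and the strain differences of Pdgfra were -0.08 ± 0.07 (adjusted p = 0.473) and -0.03 ± 0.07 (adjusted p = 0.8). A second, dimmer Pdgfra probe had the opposite sign (0.22 ± 0.26 and 0.02 ± 0.26, adjusted p = 0.641 and 0.97). The membrane protein genes Lhfpl3 and Tmem100 and the sialidase gene Neu4 had strain differences between -0.23 and -0.05 on the control diet and between -0.03 and 0.06 on the CCH diet, with limma adjusted p from 0.0963 (Neu4, control diet) to 0.886. The 4 precursor genes other than Sapcd2 had a median strain difference of -0.10 on the control diet and 0.01 on the CCH diet, against -0.01 and -0.02 over all genes tested.

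The 3 newly forming genes, Gpr17, Enpp6 and Bcas1, were not called in any comparison with all 16 arrays. Gpr17, a G protein-coupled receptor of differentiating precursors, differed between the strains by 0.25 ± 0.10 on the control diet (adjusted p = 0.122) and by 0.10 ± 0.10 on the CCH diet (adjusted p = 0.579). Enpp6, a choline phosphodiesterase of early oligodendrocytes, differed by 0.20 ± 0.21 and 0.34 ± 0.21 (adjusted p = 0.603 and 0.323). Bcas1 marks oligodendrocytes that have started to myelinate. It stood at 3.76, 3.74, 3.83 and 3.65 in SAM/P-8 control and at 3.71, 3.81, 3.70 and 3.91 in SAM/R-1 control. In SAM/P-8 CCH it stood at 3.58, 3.59, 3.51 and 4.47, and in SAM/R-1 CCH at 3.76, 3.70, 3.78 and 3.88. Replicate 4 of SAM/P-8 CCH was the highest array and the other 3 of that group were the lowest of all 16. The strain difference of Bcas1 on the CCH diet was 0.01 ± 0.16 (adjusted p = 0.983) with that array and -0.22 ± 0.06 (adjusted p = 0.0406) without it. The second Bcas1 probe was not called without it (-0.21 ± 0.08, adjusted p = 0.138).

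Among the 3 transcription factors measured, Olig1 was higher in SAM/P-8 on both diets. Olig1 and Olig2 are neighbouring basic helix-loop-helix genes that specify the lineage. Olig1 stood at 2.10, 2.25, 2.15 and 2.15 in SAM/P-8 control and at 1.60, 1.62, 1.71 and 1.67 in SAM/R-1 control. It stood at 2.19, 2.17, 1.94 and 2.39 in SAM/P-8 CCH and at 1.51, 1.74, 1.68 and 1.59 in SAM/R-1 CCH. No SAM/P-8 array overlapped with a SAM/R-1 array on either diet. Olig1 was 1.43-fold higher on the control diet (0.51 ± 0.08, limma adjusted p = 0.000408) and 1.46-fold higher on the CCH diet (0.55 ± 0.08, adjusted p = 0.000266). Olig1 too has 1 probe, whose target sequence was not examined here.

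Olig2 stood at -0.40, -0.15, -0.38 and -0.38 in SAM/P-8 control and at -0.87, -0.54, -0.44 and -0.73 in SAM/R-1 control. With CCH it stood at -0.55, -0.74, -0.64 and -0.13 in SAM/P-8 and at -1.02, -0.93, -0.89 and -0.91 in SAM/R-1. The strains did not overlap on either diet. The difference was called on the CCH diet (0.42 ± 0.12, 1.34-fold higher, adjusted p = 0.0298) and not on the control diet (0.32 ± 0.12, adjusted p = 0.0967). Without SAM/P-8 CCH replicate 4, the array where Olig2 was highest, the calls changed places, with 0.29 ± 0.10 on the CCH diet (adjusted p = 0.0642) and 0.32 ± 0.09 on the control diet (adjusted p = 0.0267). The CCH difference also missed the threshold without SAM/P-8 CCH replicate 1 and without each of the 4 SAM/R-1 CCH arrays, at adjusted p between 0.0527 and 0.0702. On 0 of 16 arrays was the other Olig2 probe well above background. Of the neighbours of this gene pair, Eva1c was higher in SAM/P-8 on both diets (0.61, adjusted p = 0.000745, and 0.48, adjusted p = 0.00532), Mrap on the CCH diet (1.00, adjusted p = 0.0242), and the interferon receptor genes Ifnar2, Ifnar1 and Ifngr2 on neither.

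**Figure D3:**
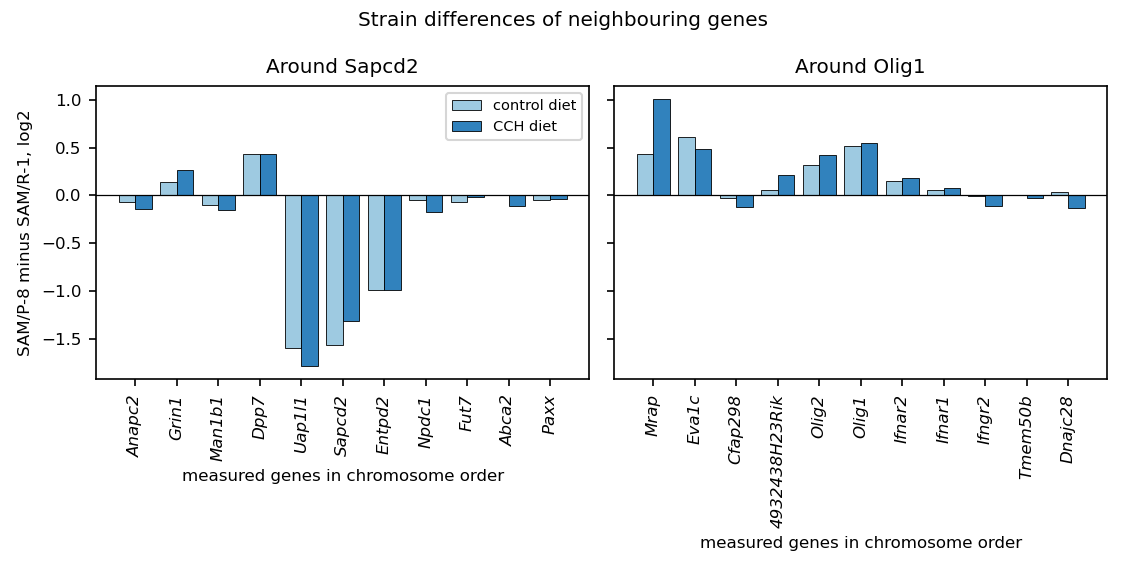
Strain difference (SAM/P-8 minus SAM/R-1, log2; light bars control diet, dark bars CCH diet) of the measured genes in RefSeq order around Sapcd2 and around Olig1. Sapcd2 shares its direction with Uap1l1 and Entpd2 beside it, with values from -1.78 to -0.98, and Olig1 shares its direction with Olig2 and, 4 places away, Eva1c.

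Nkx6-2, a homeodomain factor of maturing oligodendrocytes, stood at 1.66, 1.88, 1.89 and 1.59 in SAM/P-8 control and at 2.11, 2.29, 2.32 and 2.08 in SAM/R-1 control. It stood at 1.40, 1.86, 1.23 and 2.53 in SAM/P-8 CCH and at 2.01, 1.96, 1.73 and 2.08 in SAM/R-1 CCH. The strains did not overlap on the control diet and overlapped on the CCH diet, where SAM/P-8 held both the lowest and the highest array of all 16. With all arrays the differences were -0.44 ± 0.21 (adjusted p = 0.182) and -0.19 ± 0.21 (adjusted p = 0.589). Without SAM/P-8 CCH replicate 4 both were called, at -0.44 ± 0.13 (adjusted p = 0.0294) and -0.45 ± 0.14 (adjusted p = 0.0497).

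The 9 myelin membrane genes were represented by probes of which none was called between the strains when all arrays were used. Mbp, whose product compacts the myelin membranes, stood at 6.10, 6.15, 6.20 and 5.98 in SAM/P-8 control and at 6.29, 6.51, 6.20 and 6.34 in SAM/R-1 control. It stood at 5.95, 6.03, 5.96 and 6.69 in SAM/P-8 CCH and at 6.48, 6.33, 6.52 and 6.63 in SAM/R-1 CCH. On the CCH diet 3 SAM/P-8 arrays lay below every SAM/R-1 array and replicate 4 lay above them all. The strain difference of Mbp was -0.23 ± 0.14 on the control diet (adjusted p = 0.315) and -0.33 ± 0.14 on the CCH diet (adjusted p = 0.134). Without replicate 4 the latter was -0.51 ± 0.08 (1.42-fold lower, adjusted p = 0.00108), and the second probe of the same transcript, NM_010777, was lower as well (-0.37 ± 0.10, adjusted p = 0.0271).

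Another Mbp probe, designed on transcript NM_001025245, separated the strains on both diets. It stood at 2.04, 2.34, 2.21 and 2.23 in SAM/P-8 control and at 3.08, 3.03, 3.03 and 3.02 in SAM/R-1 control. It stood at 2.11, 2.22, 1.96 and 2.29 in SAM/P-8 CCH and at 3.08, 3.21, 3.24 and 3.05 in SAM/R-1 CCH. The strains did not overlap on either diet, and replicate 4 of SAM/P-8 CCH was within the range of SAM/P-8 control here, unlike on the other 2 Mbp probes. The signal was 1.78-fold lower in SAM/P-8 on the control diet (-0.84 ± 0.08, limma adjusted p = 2.11e-06) and lower on the CCH diet as well (-1.002 ± 0.08, adjusted p = 2.87e-07). The Mbp locus makes several transcripts, and neither the transcripts nor the target sequence of this probe in the strains was examined here.

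**Figure D4:**
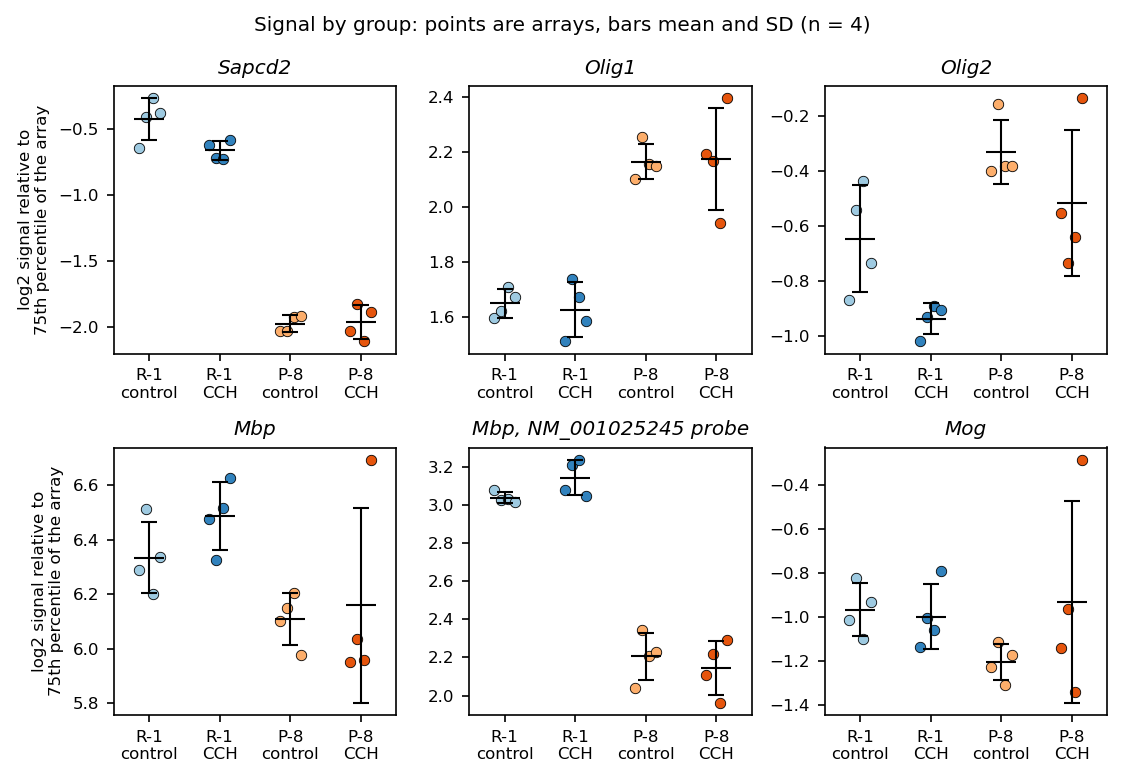
Level on each array (points; log2 relative to the 75th percentile of the array) by strain and diet for Sapcd2, Olig1, Olig2, 2 Mbp probes and Mog, with mean and SD of 4 arrays as bars and separate vertical scales. Sapcd2, Olig1 and the NM_001025245 probe of Mbp divide the strains on both diets, and in SAM/P-8 CCH the other Mbp probe and Mog have 1 array far above the remaining 3.

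Mog, a glycoprotein of the outer myelin surface, stood at -1.22, -1.11, -1.31 and -1.17 in SAM/P-8 control and at -1.01, -0.82, -1.10 and -0.93 in SAM/R-1 control. It stood at -1.14, -0.96, -1.34 and -0.28 in SAM/P-8 CCH and at -1.14, -1.005, -1.06 and -0.79 in SAM/R-1 CCH. The strains were apart on the control diet by a narrow margin and overlapped on the CCH diet. The differences were -0.24 ± 0.17 (adjusted p = 0.387) and 0.07 ± 0.17 (adjusted p = 0.831). Mag, an adhesion molecule of the inner myelin layer, Opalin, a surface glycoprotein, and Gjb1, a connexin of myelin gap junctions, had control diet differences of -0.22, -0.30 and -0.31, and CCH diet differences of 0.01, 0.16 and 0.15, none of them called. Mobp, a basic protein of compact myelin, and Mal, a lipid raft protein, had differences of 0.15 and 0.11 on the control diet and 0.10 and 0.27 on the CCH diet, also uncalled. The second Mobp probe had the opposite sign (-0.27 and -0.03, adjusted p = 0.327 and 0.937). Cldn11, the claudin of myelin tight junctions, was at -0.12 and 0.02. Cnp, a cyclic nucleotide phosphodiesterase of non-compact myelin, was at 0.01 ± 0.12 and -0.13 ± 0.12 with all arrays, and at -0.28 ± 0.07 on the CCH diet (adjusted p = 0.0287) without replicate 4.

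Of the 3 lipid and metabolism genes, Aspa, the enzyme that splits N-acetylaspartate to give acetate for lipid synthesis, had the most negative strain differences. It stood at 0.22, 0.31, 0.26 and 0.17 in SAM/P-8 control and at 0.56, 0.72, 0.31 and 0.64 in SAM/R-1 control. It stood at -0.03, 0.15, -0.14 and 0.79 in SAM/P-8 CCH and at 0.43, 0.68, 0.38 and 0.47 in SAM/R-1 CCH. On each diet 3 SAM/P-8 arrays lay below the lowest SAM/R-1 array, with 1 SAM/P-8 array above it. Aspa differed by -0.32 ± 0.16 (adjusted p = 0.209) and -0.30 ± 0.16 (adjusted p = 0.235) with all arrays. Without SAM/P-8 CCH replicate 4 it was called on both diets, at -0.32 ± 0.09 (adjusted p = 0.0333) and -0.50 ± 0.10 (adjusted p = 0.00516), while its second probe was not called (-0.27 and -0.29, adjusted p = 0.0707 and 0.0796). Ugt8a, which makes the myelin lipid galactosylceramide, and Fa2h, which hydroxylates the fatty acids of that lipid, had strain differences between -0.06 and 0.14 that were not called. A second, dimmer Ugt8a probe was called on the CCH diet (0.65 ± 0.18, adjusted p = 0.028). That call ended with another background correction (0.23, adjusted p = 0.718) and without SAM/R-1 CCH replicate 2, 3 or 4 (adjusted p = 0.0861, 0.0562 and 0.0577).

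The 4 other oligodendrocyte-enriched genes were not called between the strains with all arrays. Qdpr, which regenerates the cofactor tetrahydrobiopterin, stood at 4.29, 4.48, 4.46 and 4.38 in SAM/P-8 control and at 4.35, 4.52, 4.33 and 4.47 in SAM/R-1 control. It stood at 4.37, 4.34, 4.17 and 4.74 in SAM/P-8 CCH and at 4.44, 4.56, 4.47 and 4.53 in SAM/R-1 CCH. The strains overlapped on both diets, with differences of -0.01 ± 0.10 (adjusted p = 0.955) and -0.09 ± 0.10 (adjusted p = 0.556). Trf, the iron carrier transferrin, had differences of 0.13 ± 0.16 and 0.39 ± 0.16 (adjusted p = 0.65 and 0.122). Tspan2, a tetraspanin, and Gpr37, an orphan receptor, had differences of -0.20 and -0.16 on the control diet and -0.21 and -0.12 on the CCH diet. Without replicate 4 both were called on the CCH diet (Tspan2 -0.36 ± 0.08, adjusted p = 0.0139, and Gpr37 -0.25 ± 0.07, adjusted p = 0.0385), but the second Tspan2 probe gave 0.01 ± 0.07 there (adjusted p = 0.932).

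Counted over the set, 2 of 27 members were called between the strains on the control diet, Olig1 higher and Sapcd2 lower in SAM/P-8. Over all genes 12.8% were called in that comparison. On the CCH diet 3 of 27 were called, Olig1 and Olig2 higher and Sapcd2 lower, against 12.6% of all genes. Neither share is above the background. The median strain difference of the 12 myelinating members was -0.17 on the control diet and 0.05 on the CCH diet, with 0 of 12 called, against medians of -0.01 and -0.02 over all genes. These counts use the brightest probe of each gene, and other probes of Mbp and Ugt8a were called, as given above.

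Without SAM/P-8 CCH replicate 4 the counts rose. On the control diet 5 of 27 members were called, Olig1 and Olig2 higher and Sapcd2, Nkx6-2 and Aspa lower, against 14.8% of all genes. On the CCH diet 9 of 27 were called against 10.5% of all genes, Olig1 higher, and Sapcd2, Mbp, Aspa, Tspan2, Cnp, Gpr37, Bcas1 and Nkx6-2 lower in SAM/P-8. This array was set apart by its high values in these same members. Leaving it out therefore lowers the SAM/P-8 CCH mean of all 27, and the SE was smaller for 22 of 27. The genes as a whole were not selected in this way, so their share is no yardstick for the rise. The differences on the control diet are the same with and without this array, since it is in neither group. The SE is smaller, as the groups share an estimate of spread and this array was chosen for standing apart in these members. The added calls on the control diet follow from that choice and are no separate support. For the myelinating members the median SE there was 0.16 with all arrays and 0.09 without this array. Over all genes it was 0.08 and 0.07. On the CCH diet their median difference moved from 0.05 to -0.14, with 10 of 12 negative, and the median over all genes was -0.02 in both cases. The 4 members called on both diets without this array, Olig1, Sapcd2, Nkx6-2 and Aspa, had the same direction on both. With that array left out, SAM/P-8 CCH has 3 arrays, among them replicate 3, the lowest of all 16 for 11 of 27 members.

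**Figure D5:**
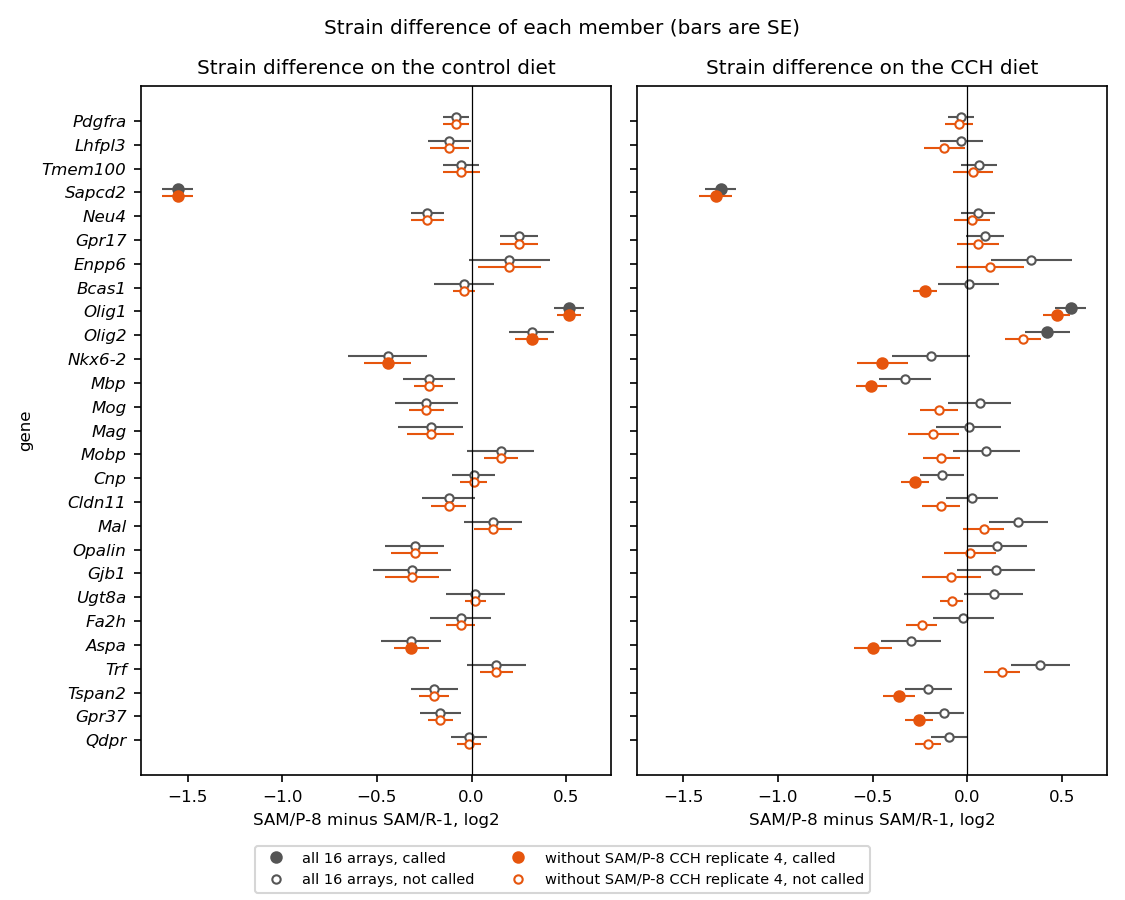
Strain difference of each member (SAM/P-8 minus SAM/R-1, log2, bars are SE) on the control diet (left) and the CCH diet (right), with all 16 arrays (grey) and without SAM/P-8 CCH replicate 4 (orange), on a shared horizontal scale. Filled points are called at adjusted p below 0.05, which holds for 2 and 3 members with all arrays and for 5 and 9 without that array.

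Some markers of other cell types differed between the strains as well. Over all genes, 12.8% were called on the control diet and 12.6% on the CCH diet. Of 12 endothelial and pericyte markers, 11 were called higher in SAM/P-8 on the control diet and 5 on the CCH diet, with array scores of 0.08 to 0.53 in SAM/P-8 and -0.52 to -0.0034 in SAM/R-1. The astrocyte score was -0.04 to 0.20 in SAM/P-8 and -0.15 to 0.01 in SAM/R-1, with 1 and 3 of 12 markers called higher. The microglial score was -0.10 to 0.14 in SAM/P-8 and -0.18 to 0.09 in SAM/R-1, with 1 and 5 of 12 markers called higher. The meningeal score was -0.24 to 0.74 in SAM/P-8 and -0.62 to 0.10 in SAM/R-1, with 1 and 2 of 10 markers called higher. Without SAM/P-8 CCH replicate 4 the calls on the 2 diets were 11 and 3 for endothelial and pericyte markers and 2 and 2 for astrocytes. For microglia they were then 1 and 2, and for meninges 1 and 1, against 14.8% and 10.5% of all genes. All markers of these 4 lists were well above background on 16 of 16 arrays. With all arrays, 0 of 12 neuronal markers were called on the control diet and 1, lower, on the CCH diet. None of 8 thalamic, 10 choroid plexus and 12 striatal markers was called on either diet. Their median SE was 0.22, 1.07 and 0.75, against 0.08 over all genes, so this does not show even levels. Choroid plexus markers were higher in SAM/P-8 for 8 of 10 on the control diet (median 0.27) and 10 of 10 on the CCH diet (median 0.78). For striatal markers it was 2 of 12 (median -0.21) and 12 of 12 (median 1.05). Without SAM/P-8 CCH replicate 4 it was 6 of 12 on the CCH diet. The part of these cells in the strain differences of the members was not tested.

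Further genes of the same lineage, listed apart from the members, gave calls in both directions. The shares called over all genes were 12.8% on the control diet and 12.6% on the CCH diet. Of 9 further precursor genes with a usable probe, 1 was called higher in SAM/P-8 on the control diet and 3 on the CCH diet, with 0 lower. Without SAM/P-8 CCH replicate 4 these counts were 1 higher and 0 lower on the control diet, and 3 higher and 1 lower on the CCH diet. Vcan, a matrix proteoglycan of precursors, was higher by 0.24 ± 0.07 and 0.34 ± 0.07 (adjusted p = 0.0395 and 0.00687). Matn4, a matrix protein, and C1ql1, a secreted ligand of adhesion receptors, were higher on the CCH diet (0.42 ± 0.10, adjusted p = 0.0122, and 0.38 ± 0.09, adjusted p = 0.0136). Of 42 further myelinating genes, 2 were called higher and 3 lower on the control diet, and 1 higher and 2 lower on the CCH diet. Ninj2, an adhesion protein, was higher in SAM/P-8 on both diets (0.74 ± 0.14, adjusted p = 0.00167, and 0.59 ± 0.14, adjusted p = 0.0102). Car2, the carbonic anhydrase of oligodendrocytes, was lower on both (-0.51 ± 0.10, adjusted p = 0.0041, and -0.45 ± 0.10, adjusted p = 0.0108). Adamts4, a protease that cuts proteoglycans, was lower on both too (-0.60 ± 0.15, adjusted p = 0.0126, and -0.50 ± 0.15, adjusted p = 0.0377). On the control diet Sema4d, a semaphorin of oligodendrocytes, was lower (-0.23 ± 0.07, adjusted p = 0.0405) and Itpr2, a calcium release channel, was higher (0.20 ± 0.05, adjusted p = 0.0147), while 2 other Itpr2 probes were not called (0.34, adjusted p = 0.281, and 0.19, adjusted p = 0.0629). The median over the 42 was -0.03 on the control diet and 0.02 on the CCH diet. Replicate 4 of SAM/P-8 CCH was the highest of 16 arrays for 27 of these 42 genes and for 2 of the 9 precursor genes. Without it the CCH diet median of the 42 was -0.11, with 1 called higher and 5 lower. On the control diet 3 of the 42 were then called higher and 6 lower. Over all genes, 14.8% were called on the control diet and 10.5% on the CCH diet without this array.

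No member was called for the CCH diet in either strain with limma. In SAM/P-8, 0 of 27 members were called against 0.78% of all genes, and 2 had an unadjusted p below 0.05. In SAM/R-1, 0 of 27 were called against 0.104% of all genes, and 2 had an unadjusted p below 0.05. Averaged over the strains, 0 of 27 were called against 4.14% of all genes, and 3 had an unadjusted p below 0.05. The averaged share depends on single arrays: over all probes it was 4.16%, and leaving out 1 array gave 1.04% (without SAM/P-8 control replicate 3) to 7.30% (without SAM/P-8 control replicate 1). The interaction, which compares the CCH effect between the strains, gave 0 of 27 called against 0.134% of all genes, 2 with an unadjusted p below 0.05 and a smallest adjusted p of 0.856, for Neu4.

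Among the myelinating members the CCH effect in SAM/P-8 had a median of 0.15 with 10 of 12 positive, against a median of -0.02 over all genes. Without replicate 4 the median was -0.05 with 5 of 12 positive, again with 0 called. Replicate 4 was set apart by its high values in these same genes, so the fall on leaving it out was fixed in advance. Replicate 3, the lowest of its group for 10 of 12 of them, was kept. For Mbp the effect was 0.05 with a 95% interval of -0.24 to 0.35 in SAM/P-8, and 0.15 with an interval of -0.14 to 0.45 in SAM/R-1. For Mag it was 0.37 with an interval of 0.01 to 0.74 in SAM/P-8 (adjusted p = 0.254) and 0.15 with an interval of -0.22 to 0.51 in SAM/R-1. In SAM/R-1 the median over the myelinating members was -0.01 with 5 of 12 positive. Intervals of this width do not show that the diets acted alike.

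The precursor genes other than Sapcd2 had a median CCH effect of 0.17 in SAM/P-8 with 4 of 4 positive, and 0.11 with 4 of 4 positive without replicate 4, none of them called. Tmem100 stood at -1.63, -1.62, -1.69 and -1.51 in SAM/P-8 CCH and at -2.001, -1.79, -1.87 and -1.73 in SAM/P-8 control, and the groups did not overlap. The difference was 0.24 ± 0.10 (adjusted p = 0.205). The CCH effect on Olig2 was -0.19 ± 0.12 in SAM/P-8 (adjusted p = 0.41) and -0.29 ± 0.12 in SAM/R-1 (adjusted p = 0.396), where the groups did not overlap. Averaged over the strains it was -0.24 ± 0.08 (adjusted p = 0.112), and without SAM/P-8 CCH replicate 4 it was -0.30 ± 0.07 and was called (adjusted p = 0.0355), 1 of 27 members against 2.91% of all genes. Sapcd2 differed with the diet by 0.01 ± 0.08 in SAM/P-8 and by -0.24 ± 0.08 in SAM/R-1 (adjusted p = 0.949 and 0.299), and the difference between these effects was 0.25 ± 0.11 (adjusted p = 0.874).

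Of the further genes, 0 of 9 precursor and 0 of 42 myelinating ones were called for the CCH diet in either strain, for the average or for the interaction. Below an unadjusted p of 0.05 stood 0 of 9 and 4 of 42 in SAM/P-8, 0 of 9 and 2 of 42 in SAM/R-1, 1 of 9 and 3 of 42 for the average, and 0 of 9 and 2 of 42 for the interaction. In SAM/P-8 the smallest p values were those of Itpr2 (-0.20 ± 0.05, adjusted p = 0.0772) and of Sox8, a SOX factor of the lineage (0.31 ± 0.11, adjusted p = 0.146). In SAM/R-1 they were those of Sema4d (-0.19 ± 0.07, adjusted p = 0.354), and Sirt2, a tubulin deacetylase of myelin (0.13 ± 0.05, adjusted p = 0.402). Sema4d (-0.17 ± 0.05, adjusted p = 0.0629) and Itpr2 (-0.11 ± 0.04, adjusted p = 0.0988) led the average, and Itpr2 (-0.18 ± 0.07, adjusted p = 0.803) and Sirt2 (-0.16 ± 0.07, adjusted p = 0.874) led the interaction. Without SAM/P-8 CCH replicate 4, 1 of the 42 was called lower for the average, against 2.91% of all genes.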

How the data were processed

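Total RNA of 16 hippocampus samples was labelled with Cy3 and hybridised to one-colour arrays. Each deposited array file gives a processed signal per spot, an intensity made with Agilent Feature Extraction 9.5.3.1 per the file headers, with background subtracted by the authors' scanner software. Per the file headers, median spot and background signals (intensity) and quality flags (other values) are given too. The authors' deposited log2 table was centred per probe and correlated with the scanner values at 0.9997 or more on each array. Scale and direction were read from that comparison.

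The members and gene lists were chosen with earlier results of these data known. Control spots and spots marked non-uniform were left out, log2 of the processed signal was taken, the array's 75th percentile was subtracted, and spots of a probe were averaged. Of 41174 probes, 29009 were tested, those marked well above background on every array of 1 group or more. Transcripts of 24836 probes were found in the RefSeq GRCm38.p6 table, and 13455 genes had a tested probe. The array design names mm9, so no positions come from it. Group means were fitted with limma 3.58.1 under R 4.3.3, with 12 residual degrees of freedom, for 6 contrasts, and p was adjusted by Benjamini-Hochberg. Fold changes come from these log2 differences. Figures were drawn with matplotlib 3.10.9.

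Values on every array are given for members called in a contrast whose groups do not overlap, for the brightest member of each role, and, chosen after their values were seen, for Mog, Tmem100 and the other Mbp probe. Further genes are named up to 4 per contrast by size, or the 2 with the smallest p. Other probes of a named member are given where they disagree. Alternatives were other background corrections, scalings, filters, array weights, the authors' table, a replicate block and leaving out each array. The fit was tested on simulated data. The number of arrays limits the precision.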

Additional observations from a re-analysis of the deposited data

Results flagged for a closer look

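Of 108 member and group combinations with 4 arrays, 9 held 1 array far from the other 3 by Dixon's criterion, and chance gives about 1 in 20. The members were measured on the same arrays and the combinations are not independent, so that rate is no yardstick for this count. SAM/P-8 CCH replicate 4 was the array for 3 of them: Bcas1 stood at 4.47 there against 3.51 to 3.59 on the others of its group, Mbp at 6.69 against 5.95 to 6.03, and Ugt8a at 0.46 against -0.51 to -0.35. SAM/R-1 CCH replicate 2 was the array for 3 myelin membrane genes and lay low in each: Cldn11 at 0.88 against 1.25 to 1.27, Mal at 1.05 against 1.43 to 1.49, and Gjb1 at -4.43 against -4.20 to -4.17. In SAM/P-8 control, replicate 2 was high for Pdgfra (-0.23 against -0.44 to -0.41) and for Olig2 (-0.15 against -0.40 to -0.38), and replicate 3 was high for Enpp6 (-4.31 against -4.67 to -4.64).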

How the results depend on the processing

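With array weights, which gave SAM/P-8 CCH replicate 4 a weight 0.268 times the median, 6 members were called between the strains on the CCH diet (3 without weights) and 1 for the averaged CCH effect (0 without weights, Olig2 at -0.28, adjusted p = 0.0318). The share of all probes called also rose with weights, from 13.5% to 17.1% and from 4.16% to 8.91%. Leaving out each array in turn gave 2 to 5 called members for the strain difference on the control diet, 2 to 9 on the CCH diet and 0 to 1 for the averaged CCH effect, with the highest count in each case without SAM/P-8 CCH replicate 4. Over all probes the same leave-outs called 10.3% to 15.6%, 9.75% to 14.3% and 1.04% to 7.30%. The strain difference of Bcas1 on the CCH diet turned negative with median centring (-0.018) and array weights (-0.18), and ranged from -0.22 to 0.1005 on leaving out 1 array, below 0 without SAM/P-8 CCH replicate 4 and without SAM/R-1 CCH replicate 1 or 2. Olig2 on the CCH diet missed the threshold with normexp (0.33, adjusted p = 0.203) and with only the 2 groups fitted (adjusted p = 0.0678). The mean of its 3 probes gave Mbp -0.49 (adjusted p = 0.0105) on the CCH diet. That mean includes the NM_001025245 probe, which was called by itself on both diets and differed more than the brightest Mbp probe. With the replicate block 2 and 3 members were called between the strains and 0 in the other contrasts, and the block changed no member's call. Deviations from the group mean correlated at -0.31 to 0.36 between arrays of the same replicate number, with 7 of 24 over 0.1. Arrays of unlike numbers were not set beside them, so this does not settle whether the numbers pair the samples. Replicate number was also the position on the slide, so the block is a block of slide position as well. Over all probes, normexp on the median spot signal called 961 against 3999 and 841 against 3903 for the strain difference on the control and the CCH diet, and 111 against 1207 for the averaged CCH effect, where no filter called 3257 and array weights 2585. For the CCH effect in SAM/P-8, 243 probes were called, against 145 with quantile normalization, 154 with no filter, 132 with the block, 28 with only the 2 groups and 0 with normexp, and leaving out 1 array gave 72 (without SAM/P-8 control replicate 2) to 437 (without SAM/P-8 control replicate 1). In SAM/R-1 33 were called, against 17 for probes above background on 16 arrays, 20 with the block, 156 with array weights and 0 with normexp, and leaving out 1 array gave 2 (without SAM/R-1 control replicate 3) to 45. For the interaction 50 were called, against 32 with quantile normalization, 17 for probes above background on 16 arrays and 0 with normexp. For the average and the interaction, a fit of the contrast's groups only is the fit of all groups. The number of arrays and signal over background limit the precision, and the causes were not tested.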
